A study of Homo sapiens with 6 samples.

Results

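The 9 genes SIGLEC9, ST3GAL1, SLC38A1, ACOXL, TK2, BCAR3, ARHGEF3, EGFLAM and DAZAP2, each carried 1 region with a TET2 peak with and without OPA1 treatment and an EGR1 peak with it. No EGR1 peak was listed there in DMSO. The genes were chosen by this very pattern of listed peaks, so the pattern is a description of the choice and is not tested. All 9 listed genes met the rule, and they are not the only ones with such a region. Of 20037 protein-coding genes, 34 had one in the gene or 50000 bp of it, and 11 had one in the gene body, these 9 included. The cells were THP-1, an established monocytic line of acute myeloid leukaemia. Treatment lasted 48 hours with DMSO (the vehicle) or with OPA1, which is here the name of an added agent; nothing more of it was used. Chromatin immunoprecipitation with sequencing (ChIP-seq) was done with an EGR1 or a TET2 antibody, giving 1 library for each antibody and treatment, beside 1 input library (chromatin without antibody) per treatment. The groups are therefore EGR1 in DMSO, EGR1 in OPA1, TET2 in DMSO and TET2 in OPA1, and all share the cell line and the duration. Peak lists hold no expression values, so the cell type was not checked against markers.

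EGR1 is a zinc-finger transcription factor induced rapidly by many signals, among them those of monocyte differentiation, and it binds a GC-rich motif. TET2 oxidises 5-methylcytosine, the first step of active DNA demethylation, mostly at CG dinucleotides. TET2 has no zinc finger of the CXXC kind that directs its relatives to CG-rich DNA, and is thought to be brought to its sites partly by transcription factors. It is often mutated in myeloid leukaemia.

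With 1 library per group, no difference between treatments or antibodies has a replicate check, and no test was made. ChIP depth was 19779007 to 19900311 filtered tags (aligned reads left after removal of those at the same position), and the inputs held 20038155 to 20075020. The lists held 513 EGR1 peaks in DMSO, 515 EGR1 peaks in OPA1, 891 TET2 peaks in DMSO and 1687 TET2 peaks in OPA1. Every listed peak had at least 8 tags. Tag numbers below are raw counts per peak with exact Poisson 95% intervals, which cover counting error only. The score is minus 10 times the log10 of the p-value from peak calling, with a listing limit of 50, and the fold sets a peak against the background around it. Scores, folds and false discovery rates are the authors' deposited values for each peak and rank peaks within 1 list only. Coordinates are on GRCh38.

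Within the 9 genes or 50000 bp of them lay 30 peaks: 12 of TET2 in OPA1, 9 of TET2 in DMSO, 9 of EGR1 in OPA1 and 0 of EGR1 in DMSO. Over all protein-coding genes, 10.7% had such a TET2 peak in OPA1, 5.76% a TET2 peak in DMSO, 2.92% an EGR1 peak in OPA1 and 2.51% an EGR1 peak in DMSO. A region in both TET2 lists and in the EGR1 OPA1 list, but not in the EGR1 DMSO list, lay in or near 34 protein-coding genes (0.17%), or in the body of 11 (0.0549%). These shares give the background of a pattern that the choice fixed, and nothing is read from them. All 9 regions were inside the body of their gene. The share of all regions inside a gene was not counted, so this is not read as a trait of the pattern. Among the other regions of this pattern, described below, only the one at BMP8A lay inside a protein-coding gene. The genes ran from 7.9 kb (DAZAP2) and 16.5 kb (SIGLEC9) to 386.0 kb (ACOXL) with a median of 117.0 kb, against a median of 24.1 kb over all protein-coding genes and of 40.9 kb over the 2139 with a TET2 peak in OPA1.

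**Figure D1:**
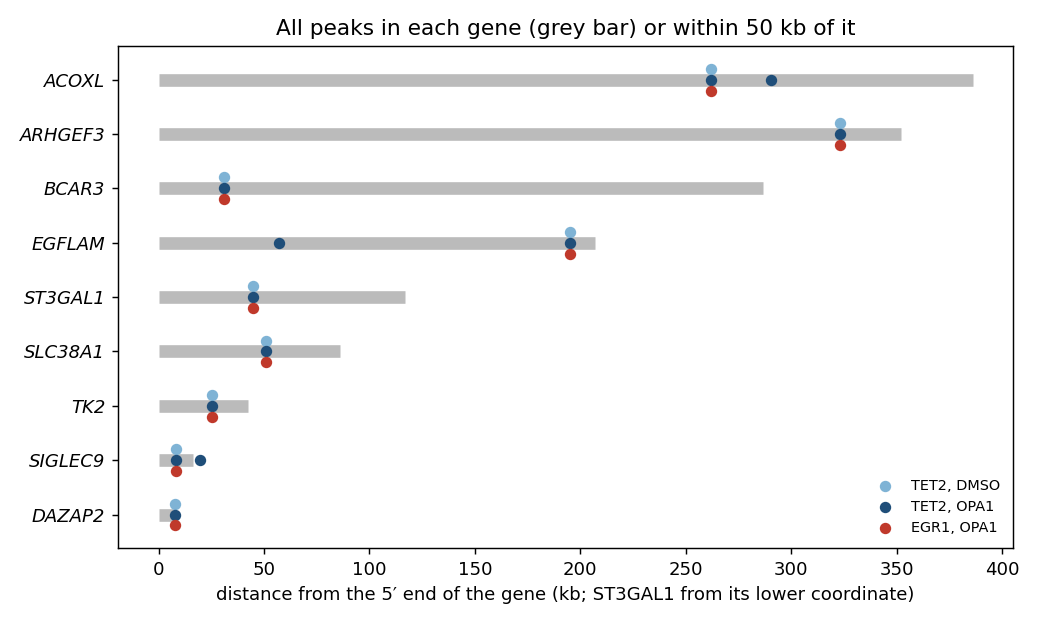
Each row is 1 gene, drawn as a grey bar to scale from its 5′ end (ST3GAL1 from its lower coordinate), and each point is the summit of a peak, in kb along the horizontal axis, coloured by antibody and treatment. In every gene a TET2 DMSO, a TET2 OPA1 and an EGR1 OPA1 summit stand at one place, and SIGLEC9, ACOXL and EGFLAM have 1 further TET2 OPA1 peak.

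RefSeq start windows, each from 250 bp before to 50 bp after a start, were at hand for 8 of the 9 genes, 23 windows in all. No peak touched any of these windows. The share of all windows in the table that a peak touched was not counted, so nothing is read from this. ST3GAL1 had no start window, so its peaks were not compared with a start. The window nearest to any peak belonged to SIGLEC9, 2773 bp away, followed by DAZAP2 at 7353 bp and the downstream start of EGFLAM at 7979 bp. Their sequences are given because these starts were the closest to the regions. They come from the RefSeq table of GRCh38.p14, 5′ to 3′, with every CG dinucleotide, the substrate site of TET enzymes, in capitals.
SIGLEC9, chr19:51124656-51124955, plus strand: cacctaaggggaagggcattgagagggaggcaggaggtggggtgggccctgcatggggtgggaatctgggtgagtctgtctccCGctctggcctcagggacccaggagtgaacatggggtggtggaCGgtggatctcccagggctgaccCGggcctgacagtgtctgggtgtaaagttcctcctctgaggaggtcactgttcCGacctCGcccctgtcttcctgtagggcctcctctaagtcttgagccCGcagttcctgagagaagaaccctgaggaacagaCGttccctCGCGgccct
DAZAP2, chr12:51238576-51238875, plus strand: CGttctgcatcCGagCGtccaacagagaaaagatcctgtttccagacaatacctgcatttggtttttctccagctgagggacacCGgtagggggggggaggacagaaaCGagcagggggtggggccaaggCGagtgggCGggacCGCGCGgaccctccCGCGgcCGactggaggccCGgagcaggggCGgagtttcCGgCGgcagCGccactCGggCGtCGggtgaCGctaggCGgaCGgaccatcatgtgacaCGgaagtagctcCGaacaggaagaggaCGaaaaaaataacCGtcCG
EGFLAM, downstream start, chr5:38445296-38445595, plus strand: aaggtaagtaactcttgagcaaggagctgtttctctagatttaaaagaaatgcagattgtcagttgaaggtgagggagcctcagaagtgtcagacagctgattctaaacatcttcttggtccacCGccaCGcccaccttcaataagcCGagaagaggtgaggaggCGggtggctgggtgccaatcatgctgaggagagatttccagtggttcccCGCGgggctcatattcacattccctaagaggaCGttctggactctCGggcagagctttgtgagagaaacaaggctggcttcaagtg
The SIGLEC9 window held 9 CG dinucleotides, the DAZAP2 window 29 and the EGFLAM window 8. The median was 9 over the 23 windows of these genes and 14 over all 35116 windows of the table. BCAR3 alone gave 10 of the 23 windows, with 1 to 31 CG dinucleotides, and ARHGEF3 gave 4, with 2 to 37. The genes therefore do not count equally in the median or in the window counts below, and nothing is read from the difference.

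The EGR1 motif was searched as GCGNGGGCG on both strands. It occurred in 1 of the 23 windows, the upstream start of EGFLAM, and in 9.43% of all windows. That window is shown with the motif in capitals.
EGFLAM, upstream start, chr5:38258309-38258608, plus strand: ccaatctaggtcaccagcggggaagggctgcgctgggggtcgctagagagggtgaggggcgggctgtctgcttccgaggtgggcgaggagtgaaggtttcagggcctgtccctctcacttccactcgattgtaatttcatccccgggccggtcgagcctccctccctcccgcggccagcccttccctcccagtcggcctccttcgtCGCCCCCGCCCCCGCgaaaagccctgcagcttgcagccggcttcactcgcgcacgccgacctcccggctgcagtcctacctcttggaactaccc
Its capitals are 2 overlapping matches, both on the opposite strand, which fill bases 207 to 221 of the window. The run also contains 1 match of GGGCGG, a GC box, on the same strand. The peak nearest to this window was a TET2 OPA1 peak 56477 bp away. GGGCGG on either strand occurred in 9 of the 23 windows and in 45% of all windows, and CGCGNG in 11 and in 39.4%. A match is a run of letters and shows no binding, and the sequence under the peaks was not analysed here.

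The first pair of genes acts on sialic acid, the sugar that caps many cell-surface glycans. SIGLEC9 encodes an inhibitory receptor of myeloid cells that recognises sialylated glycans, and ST3GAL1 encodes a Golgi enzyme that adds sialic acid to O-linked glycans. At SIGLEC9 (gene on chromosome 19, 51119778 to 51136263, plus strand), the TET2 peak in DMSO lay at 51127728 to 51128106 with its summit at 51127992 and 24 tags (15.4 to 35.7). In OPA1 it lay at 51127748 to 51128185 with its summit at 51127982 and 37 tags (26.1 to 51.0). The EGR1 peak in OPA1 lay at 51127754 to 51128042 with its summit at 51127893 and 13 tags (6.92 to 22.2). The TET2 summit in OPA1 was 8204 bp from the lower and 8281 bp from the upper end of the gene, near its middle, and 3076 bp downstream of the nearest start in the table. Both TET2 peaks had a false discovery rate of 0% and ranked 7 of 891 in DMSO and 2 of 1687 in OPA1 by score. The EGR1 peak ranked 17 of 515, the best rank of the 9 EGR1 peaks, at a false discovery rate of 16.7%. Of the 3 summits the TET2 ones were 10 bp apart, while the EGR1 summit was 89 bp from the TET2 summit in OPA1, the widest such gap among the 9 regions. A further TET2 peak in OPA1, of 11 tags at a false discovery rate of 5.14%, lay 3203 bp beyond the upper end of SIGLEC9 (summit 51139466) and 2835 bp before SIGLEC7, a related receptor gene.

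ST3GAL1 lies on chromosome 8, 133454848 to 133571887. Its TET2 peak held 20 tags (12.2 to 30.9) in DMSO, at 133499351 to 133499595, and 36 (25.2 to 49.8) in OPA1, at 133499284 to 133499690. The EGR1 peak in OPA1, at 133499351 to 133499558, held 14 tags (7.65 to 23.5). Its start is the same base as that of the DMSO TET2 peak. The TET2 OPA1 summit at 133499469 was 44621 bp from the lower and 72418 bp from the upper end of the gene, and the EGR1 summit was 9 bp from it. Both TET2 peaks had a false discovery rate of 0%. The EGR1 score of 50.8 was the lowest of the 9, just inside the listing limit, with rank 470 of 515.

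Of 14 other siglec genes, 3 had a peak of any list in the gene or 50000 bp of it. The share of all protein-coding genes with a peak of any list was not counted. Nothing is therefore read from this count or from the counts below that name no list. SIGLEC7 shared the peaks of SIGLEC9. SIGLEC11 and SIGLEC16 were counted through the same TET2 DMSO peak of 12 tags, 42973 bp outside SIGLEC11 and 28331 bp outside SIGLEC16. Of 19 other sialyltransferase genes, 4 had a TET2 peak in OPA1, 1 in DMSO and 1 an EGR1 peak in OPA1. ST3GAL3 held 3 TET2 peaks in OPA1, of 19, 49 and 124 tags with folds of 3.59 to 4.76. ST3GAL4 held 1 of 28 tags. Of 11 genes of sialic acid supply and removal, 3 had a peak. NEU2, a sialidase gene, had a TET2 DMSO peak of 17 tags 49702 bp outside the gene. NANS, which makes sialic acid phosphate, had 2 TET2 OPA1 peaks, the larger of 13 tags 313 bp outside the gene, and NANP, the phosphatase of the next step, an EGR1 DMSO peak of 9 tags.

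The second set serves transport and mitochondrial or lipid metabolism. SLC38A1 encodes a sodium-coupled carrier of neutral amino acids such as glutamine. The gene lies on chromosome 12, 46183063 to 46269043, minus strand. TET2 had 20 tags (12.2 to 30.9) in DMSO at 46218067 to 46218314 and 41 (29.4 to 55.6) in OPA1 at 46217970 to 46218372. The OPA1 number is the highest of the 9 regions, and the ratio of 2.05 (1.17 to 3.69, counting error only) is the largest. Per 100 bp of peak the SLC38A1 ratio was 1.26, smaller than at SIGLEC9 (1.33) and ACOXL (1.31). The EGR1 peak in OPA1 started at the same base as the OPA1 TET2 peak, ended at 46218288 and held 16 tags (9.15 to 26.0). The TET2 summits at 46218171 in DMSO and 46218176 in OPA1 were 5 bp apart, and the EGR1 summit at 46218209 was 33 bp from the latter. The OPA1 summit stood 35113 bp from the lower and 50867 bp from the upper end of the gene, and 48340 bp downstream of the nearest start in the table. SLC38A1 was also the member with the nearest EGR1 peak in DMSO, 139754 bp from the TET2 OPA1 peak. This peak, of 13 tags at a false discovery rate of 19.3%, lay inside the neighbouring SLC38A2, which encodes a related carrier. SLC38A2 had TET2 peaks of 13 tags in DMSO and 29 in OPA1, with summits 14344 and 14324 bp outside the gene. Among 10 other SLC38 genes, 2 had a TET2 OPA1 peak, 1 a TET2 DMSO peak and 2 an EGR1 DMSO peak. Of 10 genes of amino acid transport and glutamine use, GLS2, a glutaminase gene, alone had a peak, an EGR1 OPA1 peak of 8 tags.

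ACOXL encodes a relative of the peroxisomal acyl-CoA oxidases. On chromosome 2 (gene 110732573 to 111118548, plus strand), TET2 had 18 tags (10.7 to 28.5) in DMSO at 110994334 to 110994591 and 34 (23.6 to 47.5) in OPA1 at 110994296 to 110994668. The EGR1 peak at 110994492 to 110994627 was the shortest of the 9 EGR1 peaks, 136 bp, with 8 tags (3.45 to 15.8), the fewest that any listed peak holds. The EGR1 summit at 110994559 was 18 bp from the TET2 summit in OPA1 (110994541) and 100 bp from that in DMSO (110994459). The TET2 summits themselves were 82 bp apart, the widest gap between treatments in the set. The region lay deep in the gene, 261968 bp downstream of its start and 124007 bp from its upper end. A second TET2 OPA1 peak, of 11 tags at a false discovery rate of 2.23%, had its summit at 111022941 inside the gene. Of 12 other genes of peroxisomal beta-oxidation, ACOX2 and ACAA1 had a TET2 OPA1 peak, each of 9 tags, and ABCD2 a TET2 DMSO peak of 8.

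TK2 encodes the thymidine kinase of mitochondria, which supplies nucleotides for mitochondrial DNA. It was the only member whose TET2 tags were fewer in OPA1. On chromosome 16 (gene 66508003 to 66550291, minus strand), TET2 had 17 tags (9.90 to 27.2) in DMSO at 66524853 to 66525130 and 11 (5.49 to 19.7) in OPA1 at 66524834 to 66525085. The ratio was 0.647, with a counting interval from 0.274 to 1.46, so more and fewer tags are both inside it. By score the peak ranked 17 of 891 in DMSO and 800 of 1687 in OPA1. The EGR1 peak at 66524838 to 66525036 had 8 tags (3.45 to 15.8). The 3 summits were closest here, at 66524956, 66524963 and 66524970 for TET2 in DMSO, TET2 in OPA1 and EGR1, a span of 14 bp. The TET2 OPA1 summit stood 25159 bp downstream of the start, 16960 bp from the lower and 25328 bp from the upper end of the gene. Of 13 other genes of deoxynucleoside salvage and mitochondrial DNA upkeep, 4 had a peak. DGUOK, the deoxyguanosine kinase gene of mitochondria, had a TET2 OPA1 peak of 11 tags 103 bp outside the gene, and POLG, the mitochondrial DNA polymerase gene, an EGR1 OPA1 peak of 13 tags 210 bp outside it.

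The third set acts in cell adhesion, the matrix and signalling to the cytoskeleton. BCAR3 encodes an SH2 adaptor that binds the docking protein BCAR1. On chromosome 1 (gene 93561741 to 93848151, minus strand), TET2 had 19 tags (11.4 to 29.7) in DMSO at 93816926 to 93817215 and 23 (14.6 to 34.5) in OPA1 at 93816885 to 93817266. The EGR1 peak at 93817004 to 93817198 had 11 tags (5.49 to 19.7), and lay inside both TET2 peaks. The summits were at 93817095, 93817091 and 93817065 for TET2 in DMSO, TET2 in OPA1 and EGR1. The TET2 OPA1 summit stood 28819 bp downstream of the nearest of 10 starts in the table, 31060 bp from the upper and 255350 bp from the lower end of the gene. Of 17 other genes of the CAS adaptors and integrin adhesion, 5 had a TET2 OPA1 peak, 2 a TET2 DMSO peak and 2 an EGR1 DMSO peak. PTK2, the focal adhesion kinase gene, had the most tags among them, 17 in OPA1.

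ARHGEF3 encodes a guanine nucleotide exchange factor, an activator of small GTPases. Its TET2 peak in DMSO was the weakest of the 9, with 9 tags (4.12 to 17.1) at a false discovery rate of 8.84%, on chromosome 3, 56756209 to 56756384 (gene 56727420 to 57079268, minus strand). In OPA1 the TET2 peak at 56756177 to 56756501 held 18 tags (10.7 to 28.5). The EGR1 peak at 56756154 to 56756424 held 13 tags (6.92 to 22.2). This was the only member whose EGR1 peak had more tags than its TET2 peak in DMSO, and the only one whose EGR1 peak reached past the TET2 OPA1 peak, with 248 of its 271 bp inside. The summits stood at 56756329, 56756314 and 56756352 for TET2 in DMSO, TET2 in OPA1 and EGR1. For TET2 in OPA1 that was 19403 bp downstream of the nearest start in the table, 28894 bp from the lower and 322954 bp from the upper end of the gene.

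EGFLAM encodes pikachurin, a matrix protein that binds dystroglycan and is best known from the photoreceptor synapse. On chromosome 5 (gene 38258559 to 38465480, plus strand), TET2 had 22 tags (13.8 to 33.3) in DMSO at 38453621 to 38453879 and 30 (20.2 to 42.8) in OPA1 at 38453574 to 38453943. The EGR1 peak at 38453596 to 38453928 held 22 tags (13.8 to 33.3), the most of the 9 EGR1 peaks and the same number as TET2 in DMSO. The TET2 summits were 2 bp apart (38453729 and 38453731), the closest of the set, and the EGR1 summit at 38453759 was 28 bp from the latter. That TET2 OPA1 summit stood 8185 bp downstream of the downstream start shown above, 195172 bp from the lower and 11749 bp from the upper end of the gene. A second TET2 OPA1 peak of 18 tags, at a false discovery rate of 5.24%, had its summit at 38315450 inside the gene. DAG1, the gene of dystroglycan itself, had overlapping TET2 peaks inside the gene, of 8 tags in DMSO (chromosome 3, 49476685 to 49476868) and 21 in OPA1 (49476616 to 49476957). It had no EGR1 peak. Of the 12 other genes of dystroglycan and its matrix partners, 2 had a TET2 OPA1 peak, 2 a TET2 DMSO peak and 2 an EGR1 DMSO peak, the latter LAMA1 and LAMA2, laminin genes.

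DAZAP2 encodes a small proline-rich adaptor first found as a partner of the germ cell protein DAZ. It was the shortest gene of the set and the only one with its region near a gene end. On chromosome 12 (gene 51238826 to 51246717, plus strand), TET2 had 19 tags (11.4 to 29.7) in DMSO at 51246228 to 51246547 and 24 (15.4 to 35.7) in OPA1 at 51246253 to 51246628. The EGR1 peak at 51246398 to 51246567 held 8 tags (3.45 to 15.8). The summits at 51246383, 51246417 and 51246451 for TET2 in DMSO, TET2 in OPA1 and EGR1 were 34 bp apart in turn. The TET2 OPA1 summit lay 7591 bp downstream of the start and 300 bp before the 3′ end of the gene, where the neighbouring gene SMAGP overlaps the region. Of 8 other genes of the DAZ family and of DAZAP2 partners, TCF7L2 and HIPK2 had a TET2 OPA1 peak, of 22 and 10 tags.

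**Figure D2:**
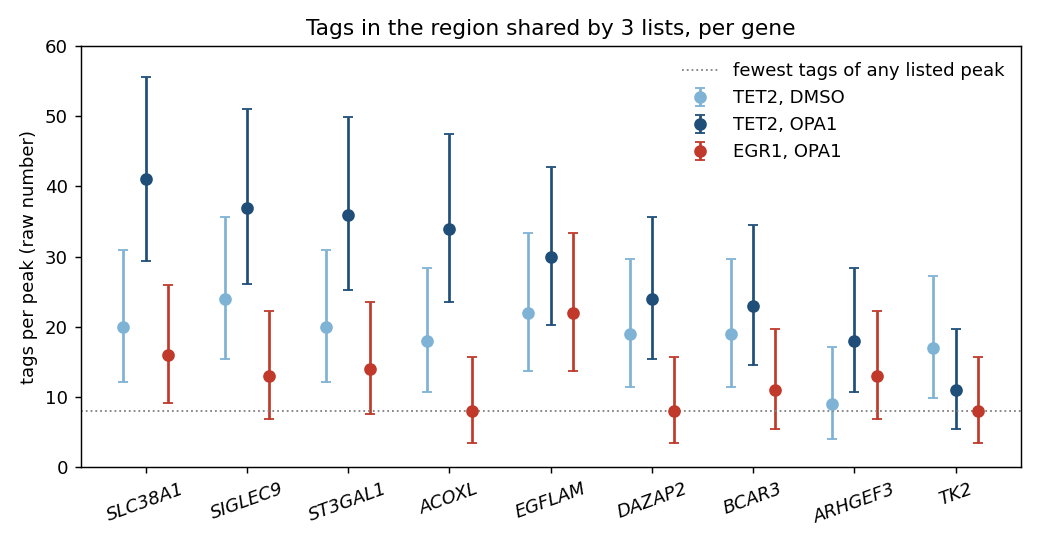
Points are the deposited tags of the peak in the shared region of each gene, with exact Poisson 95% intervals, ordered by TET2 tags in OPA1; the dotted line marks 8 tags, the fewest of any listed peak. TET2 numbers run from 9 to 24 in DMSO and from 11 to 41 in OPA1, EGR1 numbers from 8 to 22, and TK2 alone has fewer TET2 tags in OPA1.

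Across the set, TET2 tags per peak ran from 9 to 24 with a median of 19 in DMSO and from 11 to 41 with a median of 30 in OPA1. The OPA1 peak held more tags in 8 of 9 regions, and the intervals of the single tag numbers overlapped between treatments in all 9. The median ratio was 1.54, from 0.647 to 2.05. The counting interval of the ratio itself lay above 1 at SLC38A1, ACOXL (1.89, 1.04 to 3.55) and ST3GAL1 (1.80, 1.01 to 3.28) and held 1 at the other 6. Summed over the regions, TET2 had 254 tags with OPA1 against 168 with DMSO, or 1.51 times as many (1.24 to 1.85). These intervals compare 1 library with 1 library and hold no spread between replicates. They also set tags of peaks of unequal length against each other, so they are not counting error over one fixed stretch. The 162 other pairs of TET2 peaks that overlapped between the treatments had a median ratio of 1.39, with more tags in OPA1 in 144. Peak length moved with the tags: TET2 peaks were longer in OPA1 in 8 of 9 regions, with a median of 376 against 259 bp. In the 162 other pairs the median lengths were 327 bp in OPA1 and 233.5 bp in DMSO. The modelled fragment length was 76 bp in OPA1 and 64 bp in DMSO. Per 100 bp of peak the median ratio of the 9 regions was 1.08, with more tags in OPA1 in 6 regions and fewer in BCAR3, EGFLAM and TK2. It was 1.26 at SLC38A1, 1.31 at ACOXL and 1.08 at ST3GAL1. On that scale the 162 other pairs had a median ratio of 1.035, with 87 above 1 and 75 below it. The part of peak length in the tag numbers was not tested beyond this.

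**Figure D3:**
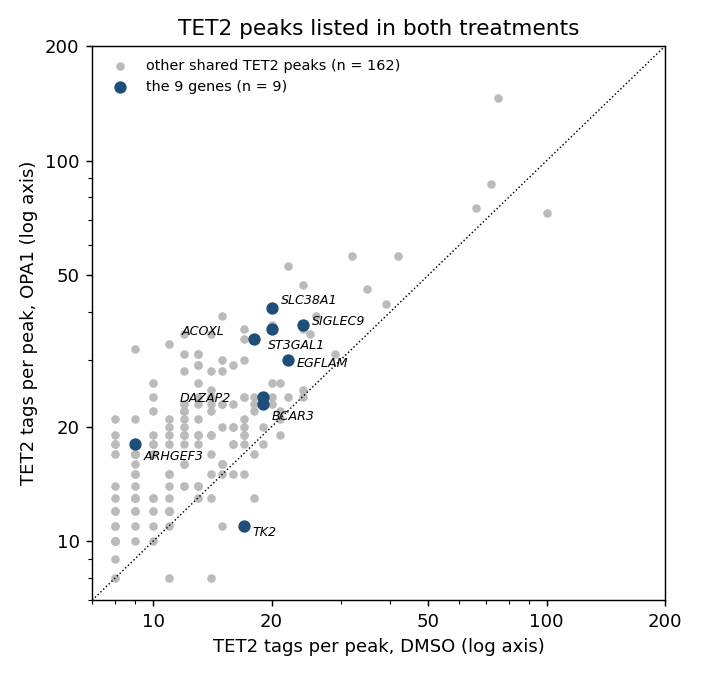
Each point is a pair of overlapping TET2 peaks, with tags in DMSO on the horizontal and in OPA1 on the vertical axis, both logarithmic; the dotted line marks equal numbers. Of the 9 genes 8 lie above the line and TK2 below it, and of the 162 other pairs 144 lie above it.

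The TET2 peaks of the set were stronger than most in their lists. Of the 9, 7 were in the top 10% of the DMSO list by score (rank 89 or better) and 7 in that of the OPA1 list (rank 168 or better). The exceptions were ARHGEF3 and SLC38A1 in DMSO and ARHGEF3 and TK2 in OPA1. The rule asked for a TET2 peak in both treatments, and peaks of this kind held more tags than their lists as a whole. The 162 other pairs had median tags of 13 in DMSO and 19 in OPA1, against 9 and 12 over the whole lists. Scores and false discovery rates of these pairs were not compared with those of the 9, so nothing particular to the 9 is read from the ranks. A false discovery rate of at most 5% was met by 8 of 9 TET2 peaks in DMSO, where 19.3% of the list met it, and by 9 of 9 in OPA1, where 80.4% did. None of the 9 EGR1 peaks met it. Their rates ran from 16.7 to 23.4%, their scores from 50.8 to 75.9 with a median of 52.3, and 2 of them, at SIGLEC9 and EGFLAM, stood in the top 10% of that list (rank 51 or better). The other 7 ranked 227 to 470 of 515. The limit is met by only 4 EGR1 OPA1 peaks and 2 EGR1 DMSO peaks anywhere. With scores this near the listing limit, the lack of an EGR1 peak in DMSO is not shown to be a lack of EGR1 there, since tags outside listed peaks were not analysed here. In OPA1, EGR1 tags were fewer than TET2 tags in 9 of 9 regions, and the intervals were apart at SIGLEC9, SLC38A1, ACOXL and ST3GAL1. Of the 15 other overlapping pairs of EGR1 and TET2 peaks in OPA1, EGR1 tags were fewer in 12 and more in 2. The antibodies differ, so these numbers do not compare the amounts of the proteins.

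The peaks of both factors overlapped in every region, as the rule required. The EGR1 peak was wholly inside the TET2 OPA1 peak in 8 of 9 regions, and 100 bp (ACOXL) to 289 bp (SIGLEC9) were common to all 3 peaks. The TET2 OPA1 peaks were the longer ones, with a median of 376 bp against 208 bp for EGR1. The distance between the EGR1 and TET2 summits in OPA1 had a median of 28 bp, from 7 bp at TK2 to 89 bp at SIGLEC9, with 8 of 9 within 50 bp. Over the 15 other overlapping pairs in OPA1 the median was 10 bp, from 0 to 187 bp. How many of those pairs lay within 50 bp, or had the EGR1 peak wholly inside, was not counted. Nothing particular to the 9 is read from these numbers. Between the treatments, TET2 summits were 2 to 82 bp apart with a median of 10 bp, against a median of 22.5 bp in the 162 other pairs. The demand for overlap bounds all of these distances. Both OPA1 lists were called against the same input library.

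**Figure D4:**
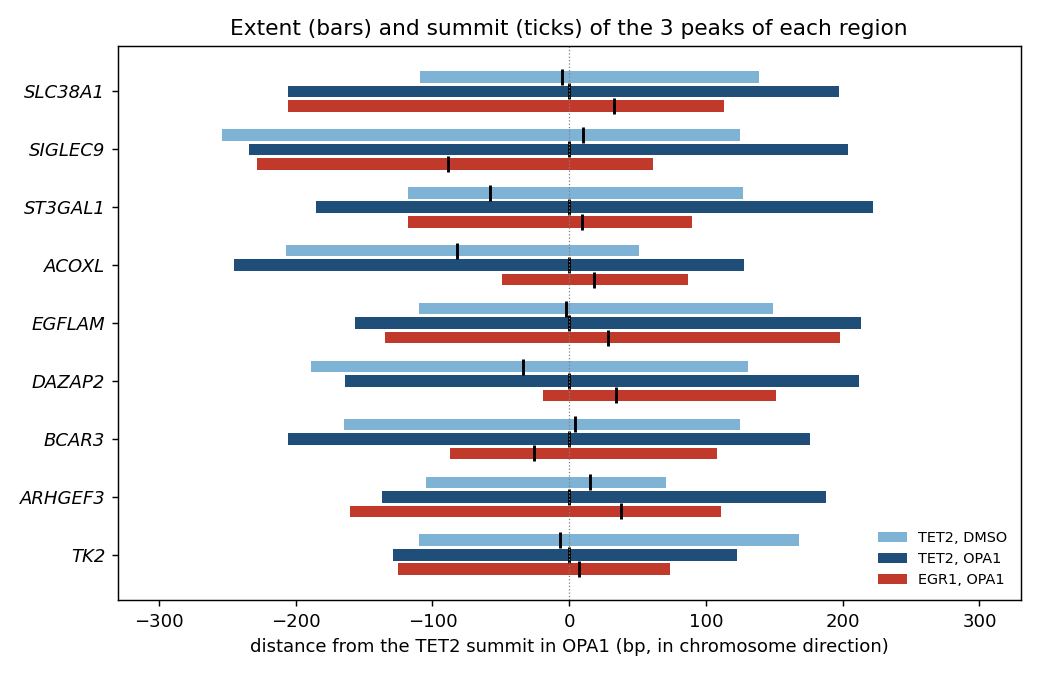
Bars show the extent and black ticks the summit of the 3 peaks of each region, in bp from the TET2 summit in OPA1. The EGR1 bars lie within the TET2 OPA1 bars except at ARHGEF3, and all EGR1 summits are 7 to 89 bp from the TET2 OPA1 summit.

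Apart from the shared regions, 3 peaks lay in the genes or 50000 bp of them, at SIGLEC9, ACOXL and EGFLAM, and all 3 belonged to TET2 in OPA1. Of the 2139 protein-coding genes with at least 1 TET2 OPA1 peak in this window, 10.9% had 2 or more, and 11.7% of those at least as long as DAZAP2. DAZAP2 is the shortest of the 9, so that limit does not match the lengths. The median length was 117.0 kb for the 9 and 40.9 kb for the 2139, and the part of gene length was not tested. The 3 further peaks held 11, 11 and 18 tags. As to the thresholds of the rule, the nearest peak outside a window was a TET2 OPA1 peak 72234 bp from DAZAP2, with 10 tags. Of regions in both TET2 lists without an overlapping EGR1 OPA1 peak, the one nearest to such a peak lay 11061 bp from it, beside PEBP4.

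The regions most like these, by the lists that hold a peak, were 6 others of the same 3 lists, which made 15 of 3398 merged regions (0.441%). A pair lay on chromosome 1, at BMP8A (38 EGR1 OPA1, 42 TET2 DMSO and 56 TET2 OPA1 tags) and 10759 bp from BMP8B (58, 75 and 146 tags in the same order). The others lay 11622 bp from ELOVL6 (11, 9 and 15), 3871 bp from ZDHHC11B (9, 8 and 19), 8444 bp from WRN (12, 13 and 24) and 170626 bp from TSNARE1 (12, 14 and 19). A region at PGK1 and a region on chromosome 15, 5435 bp from SKOR1, were in all 4 lists. EGR1 had 172 tags in DMSO and 98 in OPA1 at PGK1, where TET2 had 100 and 73. In the region near SKOR1 EGR1 had 74 and 17 tags and TET2 20 and 26. At both, EGR1 tags were fewer in OPA1. The reverse pattern, an EGR1 peak in DMSO in place of OPA1, was found in 1 region, 54434 bp from PDHX on chromosome 11. It had 14 EGR1 tags in DMSO, at a false discovery rate of 75.0%, and 12 and 19 TET2 tags in DMSO and OPA1.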

How the data were processed

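Peak lists of 4 ChIP libraries were used; inputs entered through the peak calls. Per the file headers, the authors called peaks with MACS 1.4.2 on each library alone against the input of its treatment, with a p-value cutoff of 1e-05 and 1 tag kept per position. The submitters' processing notes list HOMER, the aligner Bowtie2 2.2.6 and, as the genome, GRCh38. The deposited tags are raw counts per peak. The deposited score is 10 times the negative log10 of the p-value, the deposited fold is a ratio over local background, and the false discovery rate was deposited in percent. A summit was placed at the peak start plus the deposited offset minus 1.

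Peaks were joined at 1 bp of overlap and assigned to genes of the RefSeq table (GRCh38.p14) with a window of 50000 bp, in Python 3.11.15 with pandas 2.3.3; intervals came from scipy 1.17.1. Joining and window counts were checked on simulated peaks with known answers. The named genes are the 9 of the rule, the genes nearest to their peaks, all other regions of the same lists, and up to 4 genes per family or pathway list, those with the most tags, with genes named for their nearness or their role beside these. The 11 lists hold 157 genes, all matched; the counts of 1 list are not reported here. Members and lists were chosen with earlier results of these data known. Alternatives varied overlap, peak strength, window and tag scale. Exons and the sequence under peaks were not analysed here.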

Additional observations from a re-analysis of the deposited data

How the results depend on the processing

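The pattern was kept by all 9 genes with at least 50 bp of overlap and with an overlap of 50% of the shorter peak. It was kept by 8 (without ARHGEF3) with a false discovery rate of at most 5% in the TET2 lists and by 7 (without SLC38A1 and ST3GAL1) with a fold of at least 8 in every list. It was kept by 2, SIGLEC9 and EGFLAM, with a score of at least 60 in every list and by 0 with a false discovery rate of at most 5% in every list, since 0 of the 9 EGR1 OPA1 peaks passed that limit. A window of 100000 bp gave 1 EGR1 DMSO peak in place of 0, at SLC38A1, and 15 TET2 OPA1 peaks in place of 12, with the other lists at 9. Per 100 bp of peak the median TET2 ratio was 1.08 in place of 1.54, and it turned below 1 at BCAR3 (0.919) and EGFLAM (0.955). With peak centres the median distance of EGR1 from TET2 was 42 bp in place of 28. The 34 genes in or near regions of this pattern became 63 with all genes of the table and 12 with a window of 5000 bp. Of 41 alternative values, 31 kept their direction and stayed within 1.5 times a count or within the counting interval of a ratio. No paired analysis was possible because each group has 1 library. Depth of 8 to 22 tags per EGR1 peak limits what these lists can show.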

Other observations

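Over the 11 family and pathway lists, 148 genes other than the 9 were examined. A TET2 peak in the gene or 50000 bp of it was listed for 28 (18.9%) in OPA1 and 15 (10.1%) in DMSO, against 10.7% and 5.76% of all protein-coding genes. An EGR1 peak was listed for 4 (2.7%) in OPA1 and 8 (5.41%) in DMSO, against 2.92% and 2.51%. SIGLEC7 is 1 of the 28, of the 15 and of the 4 through the region of SIGLEC9, which the choice of genes used. SIGLEC11 and SIGLEC16 are both among the 15 through the same TET2 DMSO peak. The 148 genes had a median length of 44.5 kb, against 24.1 kb for all protein-coding genes, and the part of gene length in the shares was not tested. The lists were chosen with earlier results of these data known. The shares are therefore no independent support for the families or pathways, and nothing is read from them.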
